A study of Homo sapiens with 9 samples.

Results

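The withdrawal of glutamine from HeyA8 cells grown alone was examined across genes. HeyA8, which the labels also spell Hey8A, is an established human ovarian cancer cell line. The comparison set 3 arrays of monoculture kept for 24 h in glutamine deprivation medium against 3 arrays of monoculture kept for 24 h in complete medium, 6 of the 9 arrays of the series. Both groups were seeded on day 0 and had their medium replaced on day 4, so that they differ, as far as the labels say, only in the glutamine of the last medium. The other 3 arrays, glutamine-deprived coculture with cancer-associated fibroblasts on inserts, served only in the estimate of the spread. Each gene was represented by the brightest of its probes that carry 1 gene symbol, by the mean of the 9 arrays, and was kept when that mean lay above the median of all probe means. This left 10862 genes of the 18354 with a name.

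HeyA8 is a single cell line and each condition was read at 1 time point, so the values describe this line at 24 h. Nothing in the labels tells whether the 3 samples per condition were separate cultures or wells of 1, so p-values here cover no more than the differences among these samples, possibly technical ones. The deposited scale is log2-like, and 1 unit of it is taken as a doubling. Its lower end is a floor, with an upper edge at 7.50, below which levels have no order. A fold that involves a level near the floor understates the change. The arrays share nearly the same distribution of values, so each difference is relative to the other genes. Less RNA per cell, fewer cells and a shift in the kinds of cells cannot be told apart in such bulk samples. Across probes, the deprived arrays correlated with each other at 0.996 to 0.997, the complete medium arrays at 0.997, and arrays of different groups at 0.960 to 0.963.

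Glutamine is the most abundant free amino acid of plasma and culture medium. Cells use it to build protein, as the nitrogen donor for nucleotides, asparagine and hexosamines, and, after conversion to glutamate and alpha-ketoglutarate, as carbon for the tricarboxylic acid cycle. When amino acids run short, uncharged tRNA activates the kinase GCN2, which phosphorylates eIF2-alpha and thereby favours translation of the transcription factor ATF4, whose targets include amino acid transporters and synthetic enzymes. At the lysosome the Rag GTPases report amino acid supply to the growth kinase complex mTORC1. Cells that stop cycling in turn lose the RNAs of DNA replication and mitosis, which are held in check outside the late cell cycle by the DREAM complex at promoter elements called CHR.

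The labelled cell type was compared with its markers. The mesenchymal marker VIM, an intermediate filament protein, was among the brightest genes of the arrays, at levels of 14.18, 14.21 and 14.08 without glutamine and 14.10, 14.10 and 14.05 in complete medium. Of 9 mesenchymal markers, VIM, CDH2, SNAI2, TWIST1 and TWIST2 lay above 8 on all 6 arrays. SNAI1 lay at the floor on all 6, and of the 8 tested, 1 was called higher and 3 lower. Of these falls, that of FN1 lay near the floor, at 7.44 without glutamine and 7.54 in complete medium. The FN1 call was lost with the mean of its probes (adjusted p = 0.345, limma) and under several other alternatives. Of 12 epithelial markers, the keratins KRT7, KRT8 and KRT18 lay above 8 on all 6 arrays, and CDH1, CLDN3, ESRP1 and OVOL1 lay at the floor on all 6. Of the 6 epithelial markers tested, 5 were called lower and 0 higher. KRT8 fell furthest, averaging 9.61 without glutamine and 11.06 in complete medium. Of 9 ovarian carcinoma markers, only PAX8, a transcription factor of the Mullerian epithelium, was above 8 on all 6 arrays, while MUC16, WFDC2, FOLR1, ESR1 and MUC1 were at the floor. Fibroblast markers, which a monoculture should lack, were at the floor on all 6 arrays for 7 of 13, among them COL1A2, COL3A1, LUM and PDGFRB. Their mean level per array ran from 7.73 to 7.76 without glutamine and from 7.66 to 7.67 in complete medium, and ACTA2, smooth muscle actin, was the only one above 8 on all 6. ACTA2 averaged 11.73 ± 0.09 without glutamine and 10.19 ± 0.03 in complete medium (SD, n = 3 each), and it was called higher. Leaving out ACTA2, a step chosen after its values were seen, gave the other 12 a mean level per array between 7.41 and 7.42 without glutamine and between 7.44 and 7.47 in complete medium, so the higher mean of the list came from ACTA2. FAP, the fibroblast activation protein, was called lower, at 7.41 ± 0.05 without glutamine and 7.82 ± 0.13 in complete medium. Of 7 leukocyte markers only CD68, which is also a lysosomal membrane protein, was above 8 on all 6 arrays, and PTPRC, CD3E and NKG7 were at the floor. Of 8 endothelial markers none was above 8 on all 6 arrays, and VWF, CLDN5 and EMCN were at the floor.

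Genes of cell division fell together and further than any other group listed here. Genes of the amino acid response, of C/EBP and related transcription factors and of endosomal sorting were mostly higher. The groups were chosen with earlier results of these data known, so their order is no independent evidence. Beside these groups stood large single changes: ALOX5AP, MKNK2, CLDN1 and TIMP1 rose, and ARHGDIB, CDH5, TNFRSF6B and CCN2 fell. Of the 10862 genes tested, 5898 (54.3%) were called at an adjusted p under 0.05 (limma, Benjamini-Hochberg). Calls in the higher direction numbered 3254 (30%) and calls in the lower direction 2644 (24.3%). Most of them were small, and the median size of a called log2 difference was 0.34. Called differences of at least 2-fold were found for 462 genes (4.25%), 169 (1.56%) in the higher and 293 (2.70%) in the lower direction, and of at least 4-fold for 21 (0.193%) and 79 (0.727%). The 2 groups of arrays did not overlap for 6352 genes (58.5%).

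**Figure D1:**
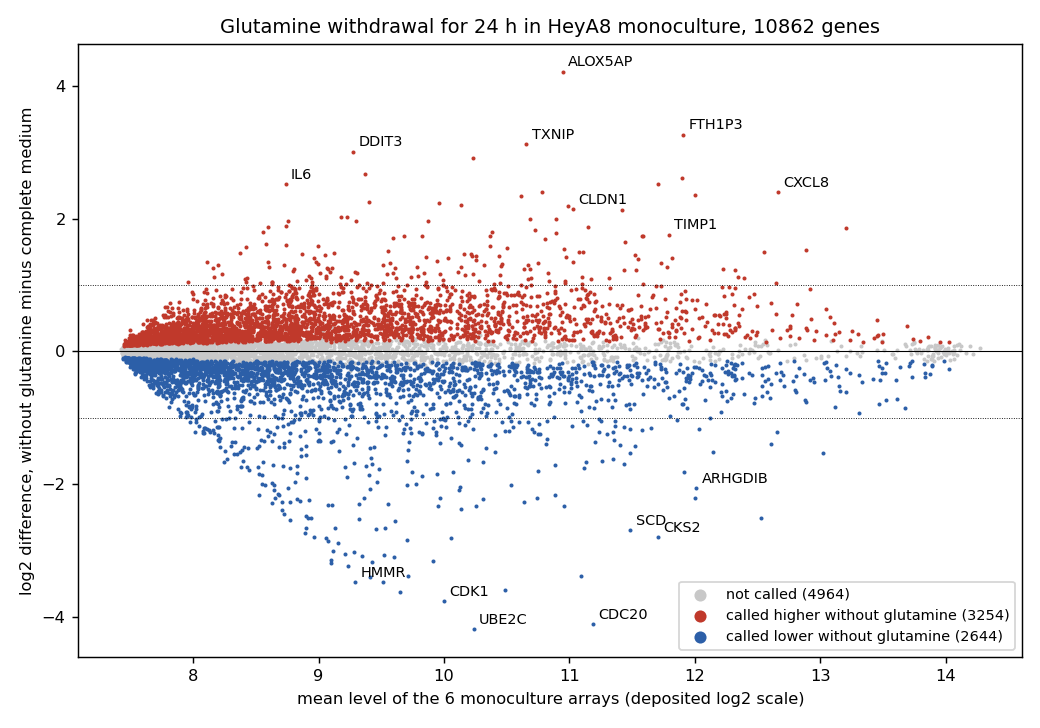
Mean level of the 6 monoculture arrays (x axis, deposited log2 scale) against the log2 difference, without glutamine minus complete medium (y axis), for 10862 genes, 1 point each. Red points were called higher (3254), blue points lower (2644) and grey points were not called; dotted lines mark a 2-fold difference, and the falls reach as far as the rises but are more numerous beyond 2-fold.

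The share of genes called depended on the level of the gene. Among 4761 genes with a mean level under 8, close to the floor, 33.2% were called and 7 fell at least 2-fold. Among 853 genes with a mean level between 10 and 11, 76.7% were called, with 48 rises and 47 falls of at least 2-fold. The 155 genes at or above 13 were called for 43.9%, with 2 rises and no fall (0) of that size. The 10 brightest genes, EEF1A1, TPT1, RPL41, RPS6, VIM, RPL21, RPS25, RPS27, FTL and RPLP2, encode a translation elongation factor, ribosomal proteins, the tumour protein TPT1, vimentin and ferritin light chain. None of them (0 of 10) was called by limma, 0 also had an unadjusted p under 0.05, and their log2 differences lay between -0.03 for RPL41 and 0.11 for FTL. They were picked by a mean near the top of the scale, which leaves little room for a difference, so this is no evidence of constancy.

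Sequences upstream of the genes with the largest changes are shown because these genes moved together and some of them share letters. For 250 bases before the transcription start, RefSeq promoters on GRCh38.p14 were searched on both strands for 7 motifs. CHR is the letters TTTGAA, the element at which DREAM and the MMB-FOXM1 complex act, and CCAAT is the box bound by NF-Y. The element read by ATF4 with a C/EBP partner was searched as TGATGNAA, that of NF-kB as GGG, any 3 bases and TTCC, that of NRF2 as TGACNNNGC, that of E2F as TTTGGCGC and the E-box as CACGTG. In the 3 promoters below, of genes among the 30 largest falls, capitals mark CHR and CCAAT letters on either strand. CDC20 activates the anaphase-promoting complex, TOP2A is the DNA topoisomerase of dividing cells, and HMMR is a spindle-associated hyaluronan receptor.
CDC20: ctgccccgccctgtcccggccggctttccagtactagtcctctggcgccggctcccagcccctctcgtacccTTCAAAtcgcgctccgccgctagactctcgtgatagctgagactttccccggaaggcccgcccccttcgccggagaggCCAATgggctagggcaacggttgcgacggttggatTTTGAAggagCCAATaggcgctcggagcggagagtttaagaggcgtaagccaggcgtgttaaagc
TOP2A: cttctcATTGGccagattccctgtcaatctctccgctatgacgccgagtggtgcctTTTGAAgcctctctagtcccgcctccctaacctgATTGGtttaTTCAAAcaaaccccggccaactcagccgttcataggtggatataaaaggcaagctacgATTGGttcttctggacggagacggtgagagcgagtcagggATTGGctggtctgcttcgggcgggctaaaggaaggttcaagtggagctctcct
HMMR: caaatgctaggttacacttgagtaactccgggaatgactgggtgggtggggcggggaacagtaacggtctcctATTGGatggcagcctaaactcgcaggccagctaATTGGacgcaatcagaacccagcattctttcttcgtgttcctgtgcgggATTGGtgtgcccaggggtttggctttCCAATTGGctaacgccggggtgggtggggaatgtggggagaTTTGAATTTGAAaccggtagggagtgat
The CDC20 promoter lies at chr1:43358731-43358980 on the plus strand, the TOP2A promoter at chr17:40417897-40418146 on the minus strand and the HMMR promoter at chr5:163460382-163460631 on the plus strand. CHR letters begin at bases -178 and -65 from the start in CDC20, at -194 and -151 in TOP2A, and at -28 and -22 in HMMR. In HMMR the CCAAT matches that begin at -69 and -66 overlap on opposite strands.

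Of the 30 largest falls, 26 had a promoter in the table, and 14 of these (53.8%) held CHR letters and 22 (84.6%) a CCAAT box. Of the 30 largest rises, 28 had a promoter, and 1 (3.57%) held CHR letters and 10 (35.7%) a CCAAT box. Among all 8743 tested genes with a promoter, 8.58% held CHR letters and 35.3% a CCAAT box, and among all 27305 promoters 13.6% and 33.0%. Over the 100 largest falls the shares were 38.8% for CHR and 72.5% for CCAAT, in 80 promoters. Over all genes called lower they were 10.4% and 38.0%, near the shares of the tested genes. UBE2C, the largest fall, has no entry in the table. The matches describe letters in a window and name no bound factor.

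For the rises, the promoter of ALOX5AP stands first because it belongs to the largest of them, ASNS because it carries the letters read by ATF4, in capitals, and IL6 because it carries the NF-kB letters, in capitals.
ALOX5AP: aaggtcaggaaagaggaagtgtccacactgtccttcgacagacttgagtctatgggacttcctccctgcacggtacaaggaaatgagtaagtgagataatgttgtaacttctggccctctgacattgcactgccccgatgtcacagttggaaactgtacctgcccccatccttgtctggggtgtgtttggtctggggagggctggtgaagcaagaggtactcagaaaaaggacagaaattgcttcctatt
ASNS: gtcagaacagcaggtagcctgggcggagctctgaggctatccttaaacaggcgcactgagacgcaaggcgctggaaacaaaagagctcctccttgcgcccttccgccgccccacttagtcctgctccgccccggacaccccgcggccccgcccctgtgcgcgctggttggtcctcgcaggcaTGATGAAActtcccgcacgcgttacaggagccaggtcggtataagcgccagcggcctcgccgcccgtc
IL6: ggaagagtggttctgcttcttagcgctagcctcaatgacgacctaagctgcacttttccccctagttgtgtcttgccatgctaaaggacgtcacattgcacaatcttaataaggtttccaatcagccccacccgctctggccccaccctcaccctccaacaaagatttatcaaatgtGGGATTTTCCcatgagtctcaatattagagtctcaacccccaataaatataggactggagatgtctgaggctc
The ALOX5AP promoter lies at chr13:30713235-30713484 on the plus strand, that of ASNS at chr7:97872409-97872658 on the minus strand and that of IL6 at chr7:22726950-22727199 on the plus strand. The ATF4 letters of ASNS begin at -68 and the NF-kB letters of IL6 at -73. Of the 7 motifs, ALOX5AP held only the NRF2 letters, at -131. The ATF4 letters were found in 1 of 28 promoters of the 30 largest rises (3.57%), against 1.52% of tested genes and 3.19% of all promoters. The NF-kB letters were found in 3 of 28 (10.7%), against 6.45% of tested genes and 5.61% of all promoters. The NRF2 letters were found in 4 of 28 (14.3%), against 12.3% of tested genes and 3013 of 27305 promoters.

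The 30 largest rises ran from a log2 difference of 4.21 to 1.86, and 9 of these genes stand in a list used here. ALOX5AP, which presents arachidonic acid to 5-lipoxygenase, had levels of 13.01, 13.07 and 13.08 without glutamine and 8.83, 8.86 and 8.82 in complete medium. The groups lay far apart, and the fold of 18.6 was the largest rise of all genes tested (adjusted p = 2.15e-20, limma). MKNK2, a kinase that phosphorylates the cap-binding protein eIF4E, had levels of 11.82, 11.61 and 11.93 without glutamine and 9.48, 9.48 and 9.37 in complete medium, 5.07-fold higher. CLDN1, a tight junction protein, had levels of 11.99, 12.08 and 12.23 without glutamine and 10.02, 9.91 and 9.93 in complete medium, 4.43-fold higher. In both genes every deprived array was above every complete medium array, as the ranking required of all 30. The plot shows levels per array for 24 genes. ASNS, the asparagine synthetase that consumes glutamine, had levels of 12.22, 12.03 and 12.00 without glutamine and 9.87, 9.79 and 10.03 in complete medium, with no overlap. SLC25A24, a calcium-regulated carrier that moves ATP-magnesium and phosphate across the inner mitochondrial membrane, averaged 10.19 ± 0.06 without glutamine and 8.16 ± 0.06 in complete medium (SD, n = 3 each) by its brightest probe. Another SLC25A24 probe was called lower, at 7.77 ± 0.08 without glutamine and 8.04 ± 0.07 in complete medium (log2 difference -0.27, adjusted p = 0.000901, limma). TM4SF19, a membrane protein of the tetraspan L6 family, averaged 9.74 ± 0.04 without glutamine and 7.78 ± 0.02 in complete medium. SCG5, a chaperone of the prohormone convertase PCSK2, averaged 9.54 ± 0.14 without glutamine and 7.66 ± 0.03 in complete medium. The complete medium levels of TM4SF19 and SCG5 lay near the floor, and their folds of 3.90 and 3.68 are understated. N4BP2L2 was 3.69-fold higher, also against a level near the floor (7.80 ± 0.04).

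**Figure D2:**
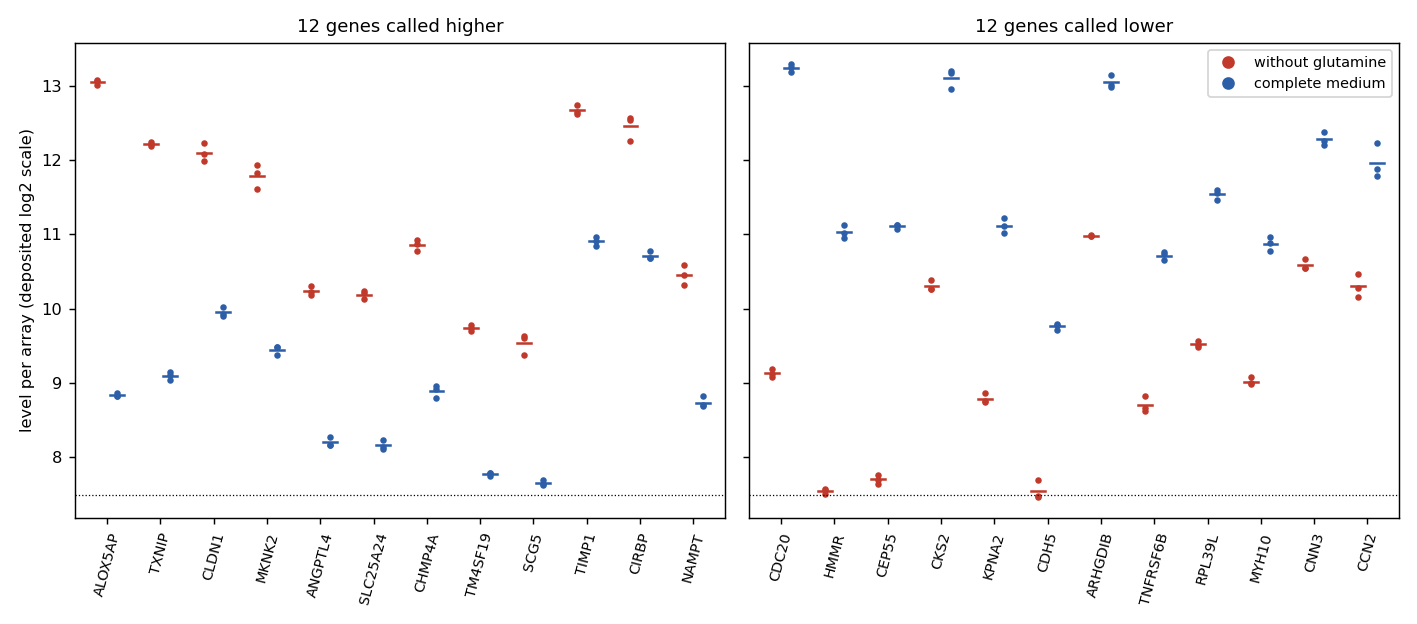
Level per array (y axis, deposited log2 scale) of 12 genes called higher (left panel) and 12 called lower (right panel); points are arrays, 3 without glutamine (red, left of each pair) and 3 in complete medium (blue), short lines are means and the dotted line is the upper edge of the floor at 7.50. The groups of arrays do not overlap for any of the 24 genes.

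Several of the rises outside the lists were of secreted and surface proteins. CSF3, the granulocyte colony-stimulating factor, had levels of 9.53, 9.57 and 9.27 without glutamine and 7.69, 7.62 and 7.64 in complete medium, a log2 difference of 1.80 (SE 0.080). C1QTNF1, a secreted protein of the C1q and TNF related family, differed by 1.63. The protein C cofactor THBD and the protease inhibitor TFPI2, which both act in coagulation, differed by 1.11 and 1.23. ITGB2, the beta chain of leukocyte integrins, differed by 1.44, at 10.95 ± 0.10 without glutamine and 9.51 ± 0.03 in complete medium. PRNP, the prion protein, differed by 0.98. All 6 were called higher, and in each of them the groups did not overlap, but they were named after their values were seen.

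Intracellular rises outside the lists covered several functions. CIRBP, the cold-inducible RNA-binding protein, had levels of 12.26, 12.56 and 12.55 without glutamine and 10.78, 10.68 and 10.69 in complete medium, 3.34-fold higher. UPP1, the uridine phosphorylase that frees ribose phosphate from uridine, was 3.24-fold higher, at 11.65 ± 0.07 without glutamine and 9.96 ± 0.05 in complete medium. EIF1B and EIF6, which act in the start codon search and in the joining of ribosomal subunits, were 2.73-fold and 2.63-fold higher. These are changes of genes at high levels: both averaged above 12 without glutamine and under 11 in complete medium. UFM1, a ubiquitin-like modifier, was 2.78-fold higher and NIFK, a nucleolar partner of the proliferation antigen Ki-67, 2.72-fold higher. EPAS1, the hypoxia-inducible factor 2-alpha, was 2.75-fold higher, XPC, a DNA damage recogniser of nucleotide excision repair, 2.66-fold and TNIP1, an inhibitor of NF-kB signalling, 2.59-fold. The autophagy genes DRAM1 and OPTN were 2.36-fold and 1.99-fold higher, and ABCA1, a cholesterol exporter, was 2.17-fold higher. TSC22D1, a leucine zipper protein induced by TGF-beta, was 3.48-fold higher, with levels of 11.16, 11.46 and 11.23 without glutamine and 9.35, 9.71 and 9.39 in complete medium.

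The 30 largest falls ran from a log2 difference of -4.18 to -2.69, and 16 of these genes stand in a list used here. CDC20 had levels of 9.19, 9.12 and 9.08 without glutamine and 13.29, 13.19 and 13.26 in complete medium, and stayed well above the floor in both. HMMR had levels of 7.51, 7.58 and 7.57 without glutamine and 11.02, 11.13 and 10.95 in complete medium, a difference of -3.48 that ended just above the floor. CEP55, which recruits the machinery of the last step of cell separation, averaged 7.70 ± 0.06 without glutamine and 11.11 ± 0.03 in complete medium. NEK2, a centrosome kinase, averaged 7.62 ± 0.04 without glutamine and 10.85 ± 0.03 in complete medium. ANLN, a scaffold of the contractile ring, differed by -3.05, and ASPM, a spindle pole protein, by -3.01. In all 5 genes the deprived arrays lay near the floor, so these differences understate the falls. CKS2, a subunit of cyclin-dependent kinases, stayed well above the floor, with levels of 10.26, 10.39 and 10.27 without glutamine and 12.96, 13.17 and 13.20 in complete medium, 6.95-fold lower. Its relative CKS1B was 5.01-fold lower.

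Falls outside the cell cycle were also found among secreted, surface and cytoskeletal genes. ARHGDIB averaged 10.98 ± 0.01 without glutamine and 13.04 ± 0.08 in complete medium, 4.18-fold lower. CDH5, the cadherin of endothelial junctions, had levels of 7.47, 7.48 and 7.69 without glutamine and 9.71, 9.80 and 9.78 in complete medium. It was thus measured in HeyA8 in complete medium and lay at or near the floor without glutamine, while the endothelial markers VWF, CLDN5 and EMCN were at the floor in both. TNFRSF6B, a soluble decoy receptor for FAS ligand, averaged 8.70 ± 0.11 without glutamine and 10.72 ± 0.06 in complete medium, 4.04-fold lower. TNFRSF11B, the decoy receptor osteoprotegerin, differed by -1.43 and ended near the floor. SFRP1, a secreted Wnt antagonist, differed by -1.71, and IGFBP3, an insulin-like growth factor carrier, by -1.41. GJA1, the gap junction protein connexin 43, differed by -1.44. NOX4, a superoxide-producing oxidase, and CA2, a carbonic anhydrase, differed by -1.30 and -1.36, both ending near the floor.

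Some further falls concerned metabolism and nucleic acids. SLFN11, a helicase-like protein that blocks stressed replication forks, was 3.36-fold lower, at 8.33 ± 0.07 without glutamine and 10.08 ± 0.04 in complete medium. DBI, the acyl-CoA-binding protein, was 2.89-fold lower, at 10.72 ± 0.07 without glutamine and 12.25 ± 0.02 in complete medium. FABP5, a fatty acid carrier, was 2.86-fold lower and GGH, which trims folate polyglutamates, 3.50-fold lower. RBMX, an RNA-binding splicing protein, was 3.92-fold lower and CLCC1, a chloride channel of the endoplasmic reticulum, 3.38-fold lower. RPL39L, a ribosomal protein paralog of RPL39, was 4.05-fold lower, and its reading is uncertain because the copies are nearly identical. The same caution holds for FAM72D, one of several near-identical FAM72 genes, which was 5.56-fold lower.

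Lists of gene groups were counted beside all genes tested, of which 30% were called higher and 24.3% lower, with a median log2 difference of 0.02. Lists of pathways and complexes, 56 of them, are drawn in order of their median. Those of chromosome segregation and duplication stood at the lower end. Of 15 tested kinetochore and spindle checkpoint genes, 14 fell, 9 of them at least 2-fold, and MIS12 alone was not called (median log2 difference -1.36). NDC80, which binds spindle microtubules, fell to 7.71 ± 0.10 without glutamine, against 10.60 ± 0.03 in complete medium, and the checkpoint kinase BUB1 to 7.52 ± 0.08, against 10.25 ± 0.10. Of 15 inner centromere proteins, 14 fell, 8 at least 2-fold (median -1.32). CENPA, the histone variant that marks centromeres, fell to the level of the floor, at 7.44 ± 0.07 without glutamine, against 9.61 ± 0.05 in complete medium. All 10 tested genes of the MCM helicase list fell (median -1.67). MCM10, a DNA replication factor, averaged 7.72 ± 0.06 without glutamine and 9.39 ± 0.06 in complete medium. Of 13 tested cohesin genes, which hold sister chromatids together, 8 fell and 1 rose (median -0.50).

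**Figure D3:**
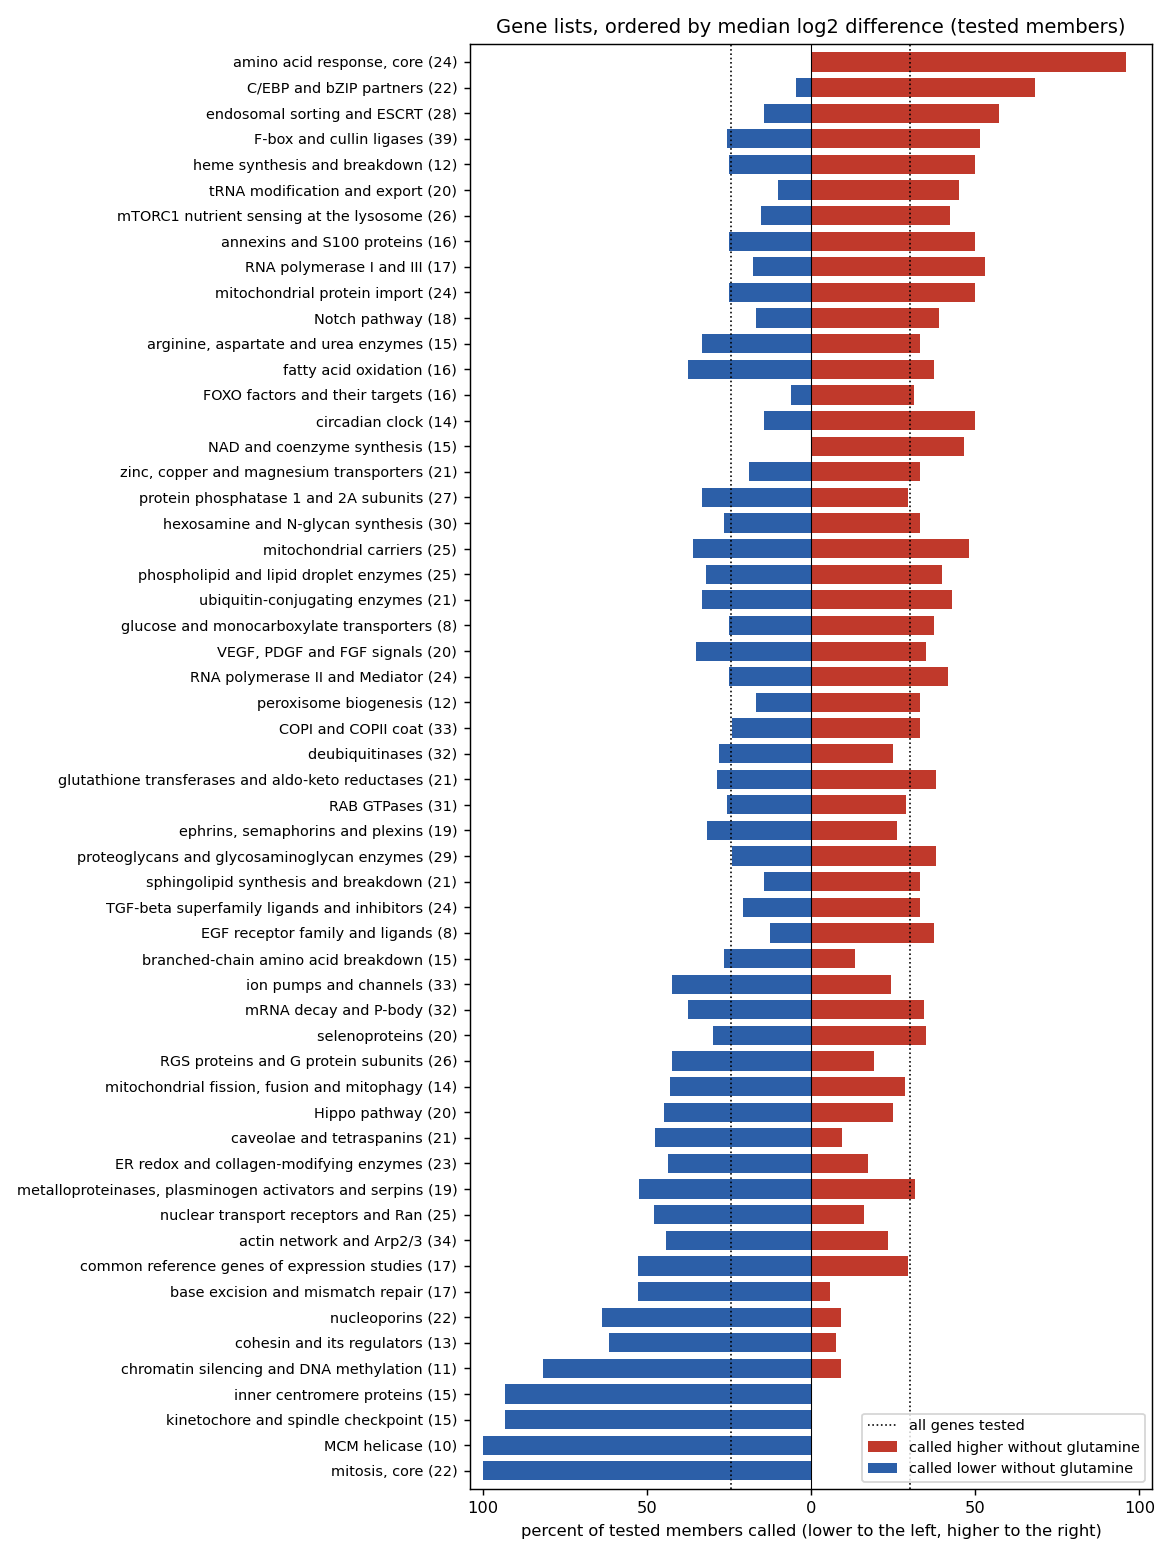
Percent of tested members called higher (red, to the right) and lower (blue, to the left) without glutamine for 56 gene lists, ordered by median log2 difference, with the number of tested members in brackets; dotted lines are the shares of all genes tested, 30% and 24.3%. The lists of mitosis, MCM, kinetochore and centromere proteins have no bar to the right. Those of the amino acid response and of NAD and coenzyme synthesis have none to the left. The lists were chosen with earlier results of these data known.

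Genes of the nuclear envelope and of chromatin silencing were also mostly lower. Of 22 tested nucleoporins, which build the nuclear pore, 14 fell and 2 rose (median -0.35). The scaffold nucleoporins NUP205, NUP107 and NUP155 fell by 1.18, 1.02 and 1.01 on the log2 scale, while RAE1, an mRNA export factor, rose by 0.80. Of 25 nuclear transport receptors and Ran proteins, 12 fell and 4 rose (median -0.12). KPNA2, an importin alpha, had levels of 8.86, 8.75 and 8.76 without glutamine and 11.11, 11.01 and 11.22 in complete medium, 5.01-fold lower. Its recycling receptor CSE1L was 2.53-fold lower, RANBP1, a cofactor of the GTPase Ran, 2.85-fold lower and RAN itself 1.62-fold lower. XPO5, which exports precursor microRNAs, was 1.84-fold higher. Of 11 genes of chromatin silencing and DNA methylation, 9 fell and 1 rose (median -0.82). UHRF1, which brings the maintenance methyltransferase to replicated DNA, averaged 8.95 ± 0.17 without glutamine and 11.33 ± 0.10 in complete medium. The methyltransferase DNMT1 was 3.08-fold lower, at 10.54 ± 0.08 without glutamine and 12.16 ± 0.10 in complete medium. The heterochromatin proteins CBX5 and CBX3 were 2.55-fold and 2.11-fold lower, and the remodeller HELLS 2.07-fold lower. Of 17 genes of base excision and mismatch repair, 9 fell and 1 rose (median -0.25).

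At the upper end, 23 of 24 tested members of an amino acid response list rose, 12 of them at least 2-fold, and NUPR1 was not called (median 1.03). These genes were picked with earlier results of these data known, so the count is no independent evidence of the direction. Of 22 C/EBP and other bZIP transcription factors and partners, 15 rose and 1 fell (median 0.41). CEBPB, an activator of acute phase and adipocyte genes, had levels of 13.29, 13.32 and 13.29 without glutamine and 11.83, 11.69 and 11.88 in complete medium, 2.83-fold higher. NFE2L1, an activator of proteasome genes, was 2.86-fold higher, and ATF3, a stress-induced factor, 2.24-fold higher against a level near the floor. Of 28 genes of endosomal sorting, whose ESCRT complexes pinch membranes inward and seal holes, 16 rose and 4 fell (median 0.28). CHMP4A, a filament-forming ESCRT subunit, had levels of 10.93, 10.78 and 10.87 without glutamine and 8.95, 8.80 and 8.92 in complete medium, 3.91-fold higher. VPS37C, of the ESCRT-I complex, was 1.90-fold higher. Of 26 genes of nutrient sensing at the lysosome, 11 rose and 4 fell (median 0.11). The Rag GTPases RRAGA and RRAGC were 2.02-fold and 1.65-fold higher, and NPRL2, a part of the complex that restrains them, 1.65-fold higher.

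Several metabolic lists had medians near that of all genes but held large single changes. Of 15 genes of NAD and coenzyme synthesis, limma called 7 higher and 0 lower, and 0 were lower at an unadjusted p under 0.05. NAMPT, the rate-limiting enzyme of NAD salvage, had levels of 10.46, 10.59 and 10.32 without glutamine and 8.69, 8.71 and 8.83 in complete medium, 3.28-fold higher. FLAD1, which makes the flavin cofactor FAD, was 2.19-fold higher. Of 25 mitochondrial carriers, 12 rose and 9 fell (median 0.05), and SLC25A24, by its brightest probe, was the only 2-fold change. Of 24 genes of mitochondrial protein import, 12 rose and 6 fell. Fatty acid oxidation was divided, with 6 rises and 6 falls among 16 genes: HADHB of the trifunctional protein was 2.04-fold higher, while the short-chain dehydrogenase HADH and the isomerase ECI2 were 2.47-fold and 2.07-fold lower. Of 15 genes of arginine, aspartate and urea metabolism, 5 rose and 5 fell. SAT1, which acetylates polyamines, was 2.08-fold higher and ASS1, which joins citrulline and aspartate, 1.86-fold higher. The glucose transporters went opposite ways. SLC2A3 averaged 11.12 ± 0.02 without glutamine and 10.12 ± 0.15 in complete medium, and SLC2A1 averaged 9.83 ± 0.16 without glutamine and 10.62 ± 0.04 in complete medium. CHKA, the choline kinase of phospholipid synthesis, was 2.08-fold higher. The zinc exporters SLC30A1 and SLC30A5 were 2.98-fold and 2.03-fold higher, SLC30A1 against a level near the floor.

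Lists of the cell surface, the matrix and the cytoskeleton held changes in both directions. Of 19 metalloproteinases, plasminogen activators and serpins with their inhibitors, 6 rose and 10 fell (median -0.11). TIMP1, an inhibitor of metalloproteinases, had levels of 12.64, 12.63 and 12.75 without glutamine and 10.97, 10.85 and 10.92 in complete medium, 3.39-fold higher. SERPINE2, an inhibitor of thrombin and plasminogen activators, was 2.77-fold higher. PLAU, the urokinase that activates plasminogen, had levels of 11.94, 12.00 and 11.80 without glutamine and 13.24, 13.39 and 13.31 in complete medium, 2.63-fold lower. In each of these genes the groups did not overlap. They are a few of the 19 and give no pattern of inhibitors against proteases over the list. Of 21 genes of caveolae and tetraspanins, 10 fell and 2 rose, with the tetraspanin CD9 2.34-fold, the caveolar coat protein CAVIN3 2.32-fold and the membrane remodeller EHD4 2.23-fold lower. Of 34 genes of the actin network, 15 fell and 8 rose (median -0.13). MYH10, a nonmuscle myosin, was 3.61-fold lower, at 9.02 ± 0.05 without glutamine and 10.88 ± 0.10 in complete medium, and CNN3, an actin-binding calponin, 3.23-fold lower. Of 20 Hippo pathway genes, 9 fell and 5 rose, and CCN2, a matrix protein induced by YAP, was 3.17-fold lower, at 10.30 ± 0.16 without glutamine and 11.97 ± 0.23 in complete medium.

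The lists of the EGF receptor family and of VEGF, PDGF and FGF signals each held 2 called rises of at least 2-fold. These were of 8 and 20 tested genes, against 1.56% of all genes tested. The list of TGF-beta superfamily ligands and inhibitors held 0 of 24, too few genes for 0 to differ from that share. These lists were chosen with earlier results of these data known, so the counts give no contrast between the families. Of 8 tested genes of the EGF receptor family and its ligands, 3 rose and 1 fell. HBEGF, a ligand of the receptor, had levels of 9.67, 9.69 and 9.66 without glutamine and 8.31, 8.24 and 8.22 in complete medium, 2.66-fold higher. ERRFI1, an inhibitor of the receptor, was 2.33-fold higher. EGFR itself had levels of 9.03, 9.16 and 9.30 without glutamine and 9.29, 9.31 and 9.19 in complete medium, which overlapped, and was not called (adjusted p = 0.231, limma). Without deprived array 3 it was called lower, with a log2 difference of -0.17 (adjusted p = 0.0459, limma), and leaving out any other single array left it uncalled. Of 20 VEGF, PDGF and FGF signals, 7 rose and 7 fell. ANGPTL4, a lipoprotein lipase inhibitor that acts on vessels, had levels of 10.31, 10.18 and 10.23 without glutamine and 8.28, 8.17 and 8.17 in complete medium, 4.09-fold higher. NRP1, a VEGF and semaphorin co-receptor, was 2.46-fold higher. Of 16 FOXO factors and targets, 5 rose and 1 fell, among them the coactivator partner CITED2 (2.36-fold), FOXO3 (1.87-fold) and the insulin receptor substrate IRS2 (1.83-fold). The share of calls in this list, 37.5%, was below that of all genes.

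The lists of protein and RNA turnover held rises and falls. Of 39 F-box and cullin ligase genes, 20 rose and 10 fell (median 0.14). The falls included FBXO5, an inhibitor of the anaphase-promoting complex, at 8.25 ± 0.03 without glutamine and 10.47 ± 0.03 in complete medium, and SKP2, which marks CDK inhibitors for destruction, 2.37-fold lower. Of 32 deubiquitinases, 8 rose and 9 fell, with UCHL1 2.16-fold higher and USP1, which acts in DNA damage tolerance, 2.26-fold lower. Of 32 genes of mRNA decay, 11 rose and 12 fell. BTG1, an antiproliferative partner of the deadenylase, was 2.37-fold higher, at 12.85 ± 0.14 without glutamine and 11.60 ± 0.08 in complete medium. LSM5, a subunit of the LSM ring, was 2.68-fold lower. Of 20 selenoproteins and their factors, 7 rose and 6 fell, and TXNRD1, the thioredoxin reductase, was 3.14-fold higher, at 12.27 ± 0.06 without glutamine and 10.62 ± 0.07 in complete medium.

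Genes often used as constant references were not constant. Of 17 tested, 5 rose and 9 fell (median -0.17). TUBB, a tubulin, had levels between 10.99 and 11.02 on the 3 arrays without glutamine and of 12.80, 12.77 and 12.91 in complete medium, 3.54-fold lower. HPRT1, a purine salvage enzyme, was 2.26-fold lower, and the transferrin receptor TFRC was 1.94-fold higher. ACTB moved less, with a log2 difference of -0.18 (adjusted p = 0.0043, limma). Probes of GAPDH were called in both directions, so no direction is given for it. The brightest averaged 13.97 ± 0.05 without glutamine and 13.75 ± 0.06 in complete medium, and another averaged 13.75 ± 0.13 without glutamine and 13.91 ± 0.04 in complete medium (log2 differences 0.22 and -0.16, adjusted p = 0.00142 and 0.0481, limma over all probes).

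A group of genes lay above the floor's edge on only one side, many of them by little. For 103 called genes all 3 complete medium arrays were at the floor and all 3 deprived arrays above it. The largest was IL6, the inflammatory cytokine, with levels of 9.95, 10.03 and 10.01 without glutamine and 7.49, 7.48 and 7.47 in complete medium. LAMP3, a lysosome-associated membrane protein, had levels of 8.54, 8.98 and 8.84 without glutamine and 7.44, 7.39 and 7.47 in complete medium. Others were RPS6KA2, a ribosomal S6 kinase, at 8.48 ± 0.10 without glutamine and 7.43 ± 0.02 in complete medium, the pattern recognition protein PTX3, the glutathione-degrading enzyme CHAC1, and at a smaller size the iron-sequestering lipocalin LCN2 and complement C3. For 131 called genes of the 10862 tested, the deprived arrays were at the floor and the complete medium arrays above it. NMU, the neuropeptide neuromedin U, had levels of 7.41, 7.41 and 7.42 without glutamine and 8.95, 9.24 and 9.03 in complete medium. Next came the cytokinesis kinesin KIF23, at 7.46 ± 0.04 without glutamine and 9.08 ± 0.03 in complete medium, and ORC6 of the origin recognition complex, at 7.47 ± 0.02 without glutamine and 8.70 ± 0.08 in complete medium. Outside cell division, the cytidine deaminase APOBEC3B fell by 0.97 on the log2 scale and the fibroblast growth factor carrier FGFBP1 by 0.61. With the floor's edge raised by 0.2 the counts were 224 and 302. With a required fold of 1.2 they were 14 and 38. Genes such as KRT24, at 7.51 ± 0.01 without glutamine and 7.41 ± 0.01 in complete medium, only straddled the edge. The counts are therefore not counts of genes switched on or off.

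**Figure D4:**
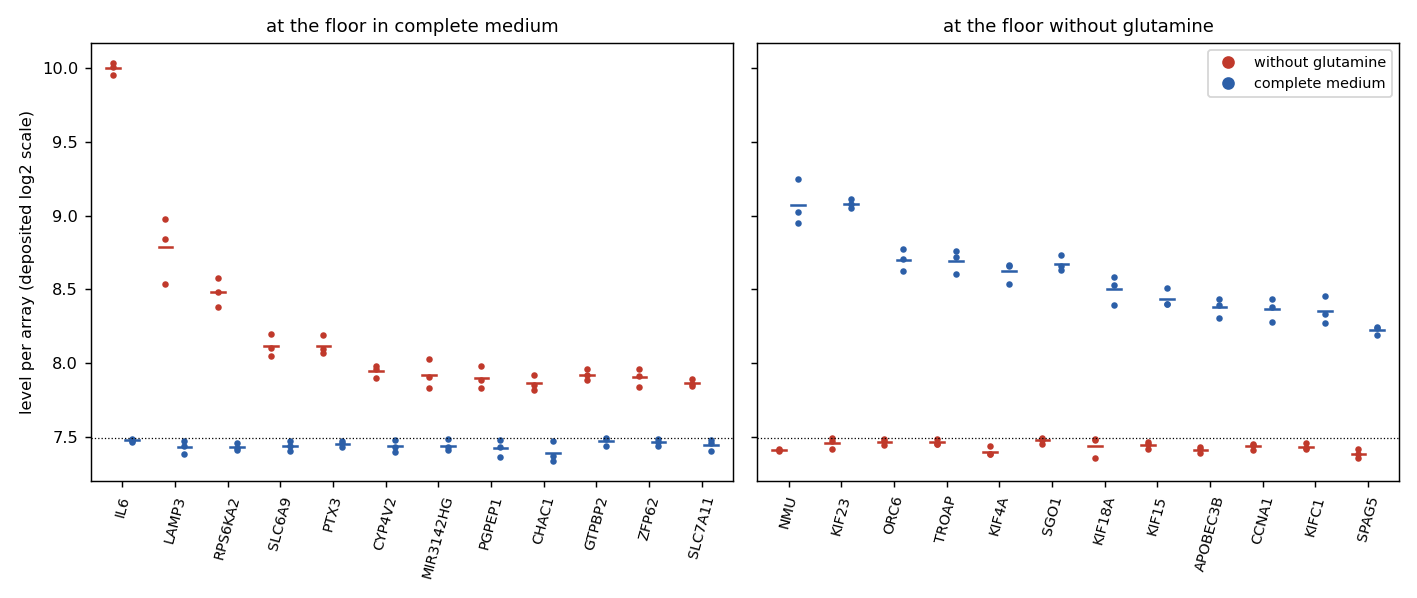
Level per array (y axis, deposited log2 scale) of the 12 genes with the largest differences among those at the floor on all complete medium arrays (left panel) and among those at the floor on all deprived arrays (right panel); points are arrays, red without glutamine and blue in complete medium, short lines are means and the dotted line is the floor's upper edge at 7.50. Of the 12 genes in the left panel, IL6 alone exceeds 9 without glutamine.

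Noncoding symbols made up a small part of the calls. Of 10293 protein-coding genes 55.4% were called, 3144 higher and 2559 lower. Of 183 long noncoding RNAs, 43 were called higher and 12 lower, 4 of them at least 2-fold and all of these higher. Of 115 small nucleolar RNAs, 16 were higher and 26 lower. EPB41L4A-AS1 had levels of 11.97, 12.07 and 12.23 without glutamine and 10.25, 10.22 and 10.18 in complete medium, 3.66-fold higher. SNHG5 and ZFAS1, host transcripts of small nucleolar RNAs, were 3.35-fold and 2.89-fold higher, ZFAS1 at 13.66 ± 0.03 without glutamine and 12.12 ± 0.06 in complete medium. SNORD80, a small nucleolar RNA, was 3.13-fold lower, at 8.88 ± 0.10 without glutamine and 10.53 ± 0.10 in complete medium. The pseudogene FTH1P3 was 9.61-fold higher and the pseudogene ARHGAP27P1 4.01-fold lower. Probes of pseudogenes may also bind RNA of their parent genes, so these readings are uncertain.

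Probes of the same gene mostly moved together. Of 1124 genes with 2 or more called probes, 1071 (95.3%) had all called probes in 1 direction, and 53 had probes in both. For DEF8, a lysosome positioning factor, 1 probe averaged 9.62 ± 0.03 without glutamine and 8.51 ± 0.11 in complete medium, and another averaged 8.14 ± 0.07 without glutamine and 8.91 ± 0.12 in complete medium. For TMEM97, the sigma-2 receptor, the differences were 0.67 and -0.97, and for PHLDA1, a pleckstrin homology protein, 0.97 and -0.52. A single direction for these genes cannot be given from the brightest probe alone.

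Arrays of a group agreed closely for most genes, and the median SD within groups was 0.067. The largest spread belonged to the histone gene H4C3, with levels of 11.06, 10.72 and 12.04 without glutamine and 13.99, 13.82 and 13.55 in complete medium. The groups did not overlap and it was called lower, with a log2 difference of -2.51 (SE 0.22). BBX and RHOBTB3 were spread in the same manner and were not called. In all of these genes deprived array 3 was the highest and complete medium array 3 the lowest of its group. BBX, an HMG-box protein, had levels of 8.81, 8.73 and 9.76 without glutamine and 9.75, 9.46 and 9.01 in complete medium. Without deprived array 3 BBX was called, with a difference of -0.63 (adjusted p = 0.00187, limma), and so was RHOBTB3, with -0.42 (adjusted p = 0.0121). Leaving out any other single array left both uncalled.

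The calls also differed by the genomic span of the gene, taken from RefSeq on GRCh38.p14 for 99.9% of genes. Genes called higher had a median span of 23.2 kb, genes called lower 35.5 kb and genes not called 28.4 kb. In the fourth decile by span, with a median of 16.1 kb, 36.8% were called higher and 21.7% lower. In the longest decile, with a median of 239.6 kb, 21.0% were called higher and 28.3% lower. Among genes changed at least 2-fold the medians were 13.8 kb for rises and 27.2 kb for falls. The median level ran from 7.88 in the shortest decile to 8.38 in the sixth and was 7.93 in the longest, and its part in these shares was not tested. By chromosome, 37.0% of 695 genes on chromosome 19 were called higher and 14.1% lower, against 23.8% and 31.8% of 374 genes on chromosome 4.

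**Figure D5:**
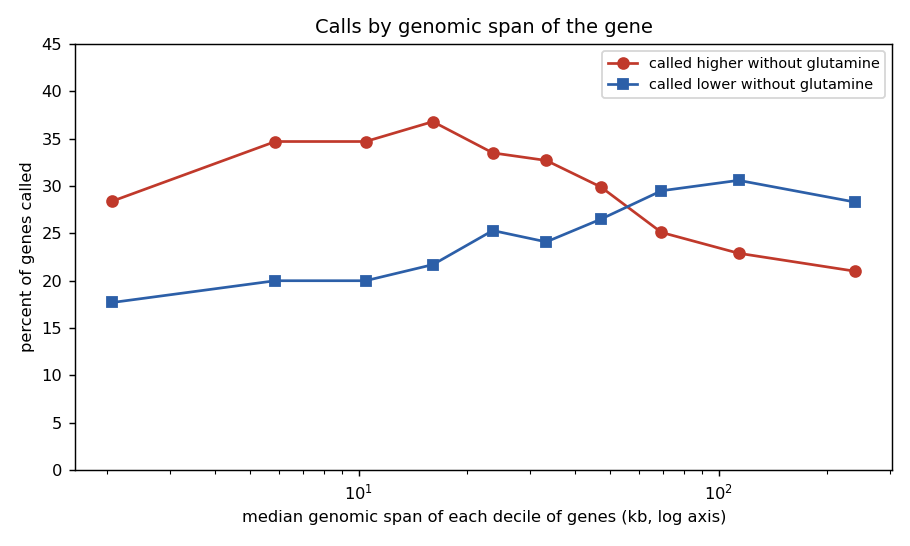
Percent of genes called higher (red circles) and lower (blue squares) without glutamine (y axis) in each decile of the tested genes by genomic span (x axis, median span in kb, log axis). Rises outnumber falls in the 7 shorter deciles, and falls outnumber rises in the 3 longest, where 21.0% to 25.1% were called higher and 28.3% to 30.6% lower.

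The glutamine transporter SLC1A5 had levels between 10.92 and 11.02 on the 3 arrays without glutamine and of 9.51, 9.66 and 9.45 in complete medium, 2.71-fold higher. Glutamate dehydrogenase, GLUD1, had levels of 10.42, 10.54 and 10.30 without glutamine and 10.68, 10.69 and 10.77 in complete medium, 1.23-fold lower. Glutamine synthetase, GLUL, had levels of 7.46, 7.48 and 7.52 without glutamine and 7.47, 7.55 and 7.36 in complete medium. The GLUL groups overlapped near the floor, and the gene was not called (adjusted p = 0.688, limma). The growth regulators MYC and CCND1 were both higher, MYC at 12.33 ± 0.07 without glutamine and 11.46 ± 0.03 in complete medium, and CCND1, cyclin D1, at 12.52 ± 0.04 without glutamine and 11.95 ± 0.05 in complete medium.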

How the data were processed

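Total RNA of HeyA8 cells was labelled with biotin and read on Illumina bead arrays, per the labels. The deposited table holds a log2-like value for each of 34476 probes on each of 9 arrays. The authors used lumi, per the submitters' processing notes. Neither its version and settings nor the transform, plain log2 or variance-stabilised, is given in the sources used here. Folds assume log2. Of the probes, 26366 had 1 symbol, 3 several and 8107 none, and 26333 matched a RefSeq gene ID. With limma 3.58.1 (R 4.3.3), 1 mean per group was fitted on all 9 arrays by lmFit, followed by eBayes with trend, with 6 residual and 13.3 prior degrees of freedom. Tests were two-sided, and p-values were adjusted by Benjamini-Hochberg over the genes tested, with a threshold of 0.05. The fit was tested on simulated data. The number of arrays limits the precision, and no detection p was used. Python 3.11.15 with pandas 2.3.3, numpy 2.4.6 and matplotlib 3.10.9 made tables and figures.

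The members, the 63 gene lists and the tests were chosen with earlier results of these data known. The naming rule took the 30 largest rises and falls without overlap, up to 4 called members of each list by smallest p, GLUL, GLUD1, SLC1A5, MYC, CCND1, EGFR and VIM among genes taken whatever their values, the largest differences among genes at the floor on one side, among noncoding symbols and among probes of opposite direction, and the brightest and most variable genes. Genes outside it were named after their values were seen. Lists are described by counts and medians, and 1 list is not reported here. Alternatives were other filters, probe means, scalings, the 6 monoculture arrays alone, a replicate block, a minimum fold of 1.2 and leaving out each array.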

Additional observations from a re-analysis of the deposited data

Results flagged for a closer look

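Probes without a gene symbol took no part in the comparison. Of 3117 such probes above the same median, 552 were called higher and 520 lower without glutamine (34.4% in all), 25 and 46 of them at least 2-fold. The largest rise averaged 13.49 ± 0.03 without glutamine and 10.35 ± 0.10 in complete medium, and the largest fall 8.28 ± 0.02 without glutamine and 12.35 ± 0.05 in complete medium (SD, n = 3 each). They drew attention because they are signal in data outside the named genes.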

How the results depend on the processing

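The count of 5898 genes called ranged from 5459 to 5729 when 1 array was left out, with 2987 to 3140 higher and 2440 to 2592 lower. It was 5749 with the 6 monoculture arrays alone, 5754 without a filter on dim genes, 4390 with a mean above 8, 5794 with the mean of a gene's probes, 5741 without trend, 5863 after centring and 5871 after quantile normalization. Deviations of same-numbered arrays correlated at -0.02, 0.02 and -0.24, and those of differently numbered arrays at -0.15 to 0.16. With 3 arrays per group these values cannot tell whether the numbers pair the samples. With the replicate block 5802 genes were called. A required fold of 1.2 left 2254, 1182 higher and 1072 lower. List members called went to 384 of 809 with that fold and to 747 to 793 without 1 array. Noncoding symbols called, 195 in all, were 86 with a mean above 8, 47 with the minimum fold and 172 to 181 without 1 array. Genes at the floor in complete medium only, 103, were 224 with a raised edge, 3 with a mean above 8, 14 with the minimum fold and 107 to 130 without 1 array. Those at the floor without glutamine only, 131, were 302, 4, 38 and 137 to 170. Genes with probes in both directions, 53, were 32 with a mean above 8. Of 368 named and called genes, 34 were not tested with a mean above 8, and of the 334 tested under every alternative, 329 stayed called under each but the minimum fold. SLC6A15, which is among the 53, reversed to -0.27 with the mean of its probes (adjusted p = 0.000155, limma). A probe of it called higher differed by 0.33 and another, called lower, by -0.66. Why its probes disagree was not tested. Levels near the floor limit what can be measured.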
